A study of Mus musculus with 6 samples.

Results

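The genes described here are 10 antioxidant and metallothionein genes of mouse embryonic fibroblasts (MEFs): Sod1, Sod2, Sod3, Mt1, Mt2, Hmox1, Nqo1, Gclc, Gclm and Slc7a11. They were chosen by symbol from a RefSeq expression table of 21837 genes. No measured value entered the rule, but the genes were chosen with earlier results of these data known. Each of the 10 had 1 transcript in the table.

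The cells were wildtype MEFs of the strain C57BL/6x 129, made from littermate embryos of day 13.5 and used at passages of 4. RNA was sequenced from untreated cells and from cells given TNF alpha (TNFα) at 20 ng/ml for 1.5, 6 or 24 hr. TNFα is an inflammatory cytokine that activates the transcription factor NF-κB. There was 1 library for each of the 4 conditions, so no value below has a spread between cultures and no test between conditions was possible. Trimethylation of histone H3 at lysine 4 (H3K4me3), a mark of active promoters, was measured by ChIP-seq, with 1 library of untreated cells against 1 input library. All the groups share the same genotype and passage, and the 3 treated libraries were compared with the same untreated library. For the 24 hr RNA library a protocol field of the label describes ChIP, whereas title and treatment match the RNA series.

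Cells remove reactive oxygen species in steps. Superoxide dismutases turn superoxide into hydrogen peroxide, and peroxidases and peroxiredoxins that draw on glutathione or thioredoxin remove the peroxide. The transcription factor NRF2, encoded by Nfe2l2 and held down by KEAP1, drives many of these genes through the antioxidant response element (ARE), while the metal sensor MTF1 drives the metallothioneins, small proteins that bind zinc and copper, through metal response elements (MREs). Sod2, the mitochondrial superoxide dismutase, is a known target of NF-κB.

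The regions upstream of Mt2, Mt1 and Sod2 are shown because the adjacent metallothionein genes differed in their response and because Sod2 was the gene of the 10 with the largest ratio to the untreated library. Sequences were read from the mm9 genome at the starts of the GENCODE annotation, 5′ to 3′ along the gene. Capitals mark the MRE core (TGCACNC or TGCGCNC) and the ARE core (TGACNNNGC) on either strand in the metallothionein genes, and the NF-κB consensus in Sod2.
Mt2 (chr8:96696268-96696517, + strand): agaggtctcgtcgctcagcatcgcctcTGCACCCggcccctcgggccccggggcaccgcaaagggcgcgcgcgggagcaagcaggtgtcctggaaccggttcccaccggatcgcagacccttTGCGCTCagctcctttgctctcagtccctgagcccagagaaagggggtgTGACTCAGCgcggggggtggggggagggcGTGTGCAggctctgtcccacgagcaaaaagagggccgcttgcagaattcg
Mt1 (chr8:96702739-96702988, + strand): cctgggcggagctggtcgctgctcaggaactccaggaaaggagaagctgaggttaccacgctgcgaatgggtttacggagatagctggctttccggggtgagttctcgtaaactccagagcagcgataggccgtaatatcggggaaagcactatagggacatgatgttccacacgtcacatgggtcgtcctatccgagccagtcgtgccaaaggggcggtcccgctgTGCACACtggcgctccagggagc
Sod2 (chr17:13200455-13200704, + strand): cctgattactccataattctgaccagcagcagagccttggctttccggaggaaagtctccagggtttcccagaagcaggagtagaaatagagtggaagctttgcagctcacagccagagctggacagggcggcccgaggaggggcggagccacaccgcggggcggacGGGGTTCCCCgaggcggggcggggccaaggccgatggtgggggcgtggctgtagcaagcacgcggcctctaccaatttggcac

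In the 250 bases before these starts, the MRE core was found 3 times in Mt2 and once in Mt1. The starts used are the outermost annotated ones, and the counts before them depend on that choice. Within 250 bases on both sides of the start it was found 7 times in Mt2, 5 times in Mt1 and 3 times in Gclm, while 52.2% of 6417 coding promoters held at least 1 and 8.07% at least 3. Most of the matches lay after the annotated start in both Mt1 and Mt2, in Mt2 at positions 5, 59, 78 and 112 counted from 1 at the start. The TATA box letters TATAAA lay after it too, at position 122 in Mt1 and 136 in Mt2. Some of these short sites are given with capitals on the match, without the MRE cores of Mt2.
Mt1 MRE core at 3 (chr8:96702983-96703005): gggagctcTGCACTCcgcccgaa
Mt1 MRE core at 21 (chr8:96703001-96703023): ccgaaaagTGCGCTCggctctgc
Mt1 ARE core at 53 (chr8:96703033-96703057): ggggcgcgTGACTATGCgtgggctg
Mt1 TATAAA at 122 (chr8:96703102-96703123): ccaacgacTATAAAgagggcag
Mt2 TATAAA at 136 (chr8:96696645-96696666): ctctccgcTATAAAggtcgcgc

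The ARE core was found within 250 bases of the start in 5 of the 10 genes, Sod1, Sod2, Mt1, Mt2 and Gclm, against 21.8% of coding promoters. These promoters are of genes with an average RPKM above 1, which leaves out Nqo1, Gclc and Gclm. The NF-κB consensus was found in 1 of the 10, Sod2, where its first base lies at position -83 from the annotated start and reads as a match on both strands, against 18.3% of coding promoters. A match is a stretch of letters and not a measured binding site, and a window without one does not show that a site is absent from the gene.

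Levels are in RPKM (reads normalised to transcript length and library size), brought to the scale of the study. Each library has columns R1 and R2, whose source reads are not given in the sources used here, and their mean was used. The estimated depth on coding genes was between 7135000 and 17240000 reads per column, and was lowest at 6 hr. Relative to the untreated library, the median of 6542 coding genes with an average RPKM above 1 was, on the log2 scale, 0.46 at 1.5 hr, -0.74 at 6 hr and 0.11 at 24 hr, so ratios are also given relative to these medians. The TNFα treatment was visible in every treated library, with Nfkbia at 3.73, 84.2, 31.0 and 67.4 RPKM and Tnfaip3 at 0.0833, 4.67, 0.827 and 1.74 RPKM. All 10 genes of a list of NF-κB targets were at least 2-fold higher than untreated at each time, against 29.9%, 1.74% and 16.8% of coding genes. Relative to the median of coding genes 10, 10 and 9 were higher, against 15.6%, 7.15% and 14.1%. Of 10 fibroblast markers 9 had an average RPKM above 1. Of 10 leukocyte markers 5 did, and their summed level was 56.9, 203, 42.1 and 101 RPKM at 0, 1.5, 6 and 24 hr. Lyz2, a lysozyme of macrophages, made up most of it after treatment, at 26.4, 171, 31.5 and 84.0 RPKM. The others with an average above 1 were Fcer1g, Cd68, Csf1r and Cd14, at 18.4, 7.07, 3.44 and 0.732 RPKM untreated. At 1.5 hr these were at 11.1, 9.61, 3.35 and 6.02 RPKM. Ptprc stayed between 0.101 and 0.359 RPKM and Cd3e was listed at 0. No endothelial marker of 6 and 1 epithelial marker of 7, Krt19, had an average above 1. The part of leukocytes in the levels of the 10 genes was not tested, and in RNA from whole cultures fewer cells of a type and less RNA per cell cannot be told apart.

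The libraries differed in how levels depended on GC content. Among 321 coding genes with the lowest GC content (up to 42.4%), the median log2 ratio to untreated was 1.42, -0.06 and 1.01 at 1.5, 6 and 24 hr, and among the 321 with the highest (from 60.7%) it was -0.77, -0.88 and -0.99. Between treated libraries the same medians were -0.37 and -0.24 for 24 hr over 1.5 hr, -1.54 and -0.32 for 6 hr over 1.5 hr, and 1.13 and 0.04 for 24 hr over 6 hr. The 1.5 and 24 hr libraries were thus close to each other in this respect, and the spread between the bins was narrower for 6 hr over untreated than for 6 hr over either of the other treated libraries. With 1 library per time, the treatment and the making of a library cannot be told apart. Ratios to the untreated library are therefore also given against about 320 genes of like GC content. Of 12 housekeeping genes, 7 were at least 2-fold higher at 1.5 hr as deposited, against 29.9% of coding genes.

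**Figure D1:**
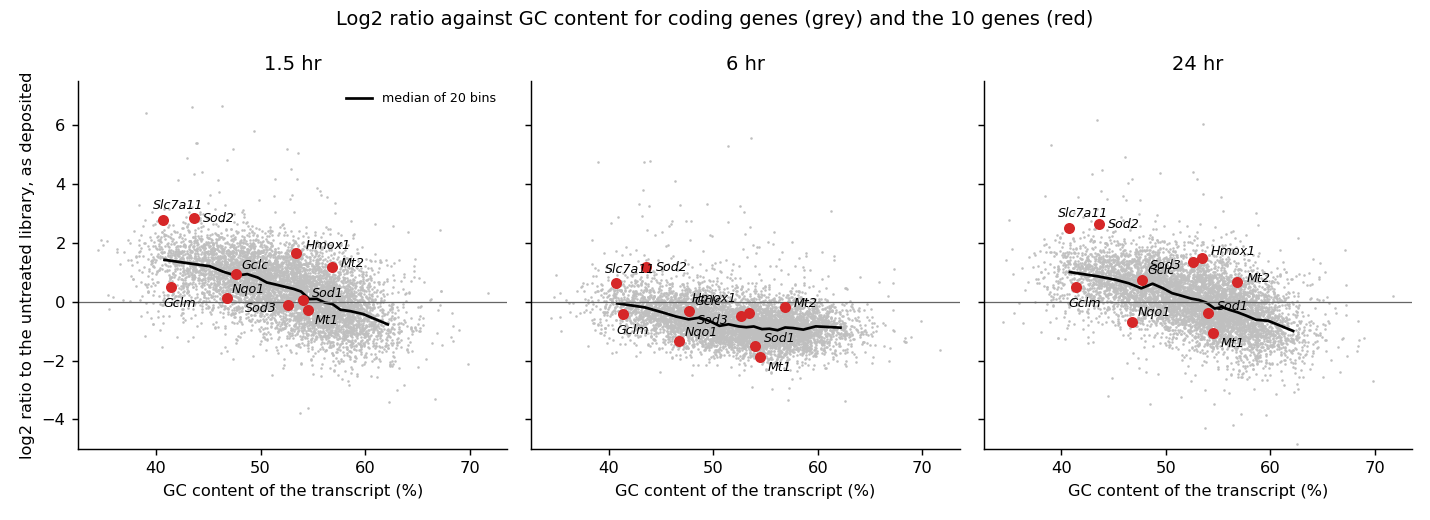
Log2 ratio to the untreated library (y axis, as deposited) against the GC content of the transcript in percent (x axis) at 1.5, 6 and 24 hr. Grey points are coding genes with an average RPKM above 1, the black line is the median of 20 bins, and red points are the 10 genes. Slc7a11 and Sod2 lie at the AT-rich side, where the line is highest, and above it at each time. Gclm lies at that side too, and below the line at each time.

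In the untreated library the 10 genes covered a wide range of levels, from 131 RPKM for Mt1 to 0.251 RPKM for Nqo1. Sod1 followed at 38.5 RPKM and Mt2 at 20.1 RPKM, and the other genes were below 4 RPKM. Of the 10, 7 passed the filter of an average RPKM above 1. Nqo1, Gclc and Gclm did not, with averages of 0.194, 0.395 and 0.567 RPKM, and are left out of the counts past 2-fold. Of the 10 genes, 8 had their highest level at 1.5 hr and 8 their lowest at 6 hr, and both counts include Nqo1, Gclc and Gclm. Of those that passed, Sod1, Sod2, Mt2, Hmox1 and Slc7a11 were highest at 1.5 hr. Sod1, Sod3, Mt1, Mt2 and Hmox1 were lowest at 6 hr. Among all coding genes that passed, 59.9% were highest at 1.5 hr and 73.8% lowest at 6 hr.

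As deposited, 4 of the 7 genes (Sod2, Slc7a11, Hmox1 and Mt2) were at least 2-fold higher than untreated at 1.5 hr, against 29.9% of coding genes, and 0 were at least 2-fold lower, against 7.80%. At 6 hr 1 gene (Sod2) was higher, against 1.74%, and 2 (Sod1 and Mt1) were lower, against 31.6%. At 24 hr 4 genes (Sod2, Slc7a11, Hmox1 and Sod3) were higher, against 16.8%, and 1 (Mt1) was lower, against 12.6%. Relative to the median of coding genes, 3 genes were higher and 0 lower at 1.5 hr (background 15.6% and 17.4%), 2 higher and 1 lower at 6 hr (7.15% and 3.13%), and 4 higher and 1 lower at 24 hr (14.1% and 15.1%). With 7 genes these counts are a description. In all, 5 of the 7 were at least 2-fold higher at 1 or more times as deposited, against 31.2% of coding genes, and 5 without the 6 hr library, against 30.5%. Relative to the median of coding genes the count was 4, against 20.0%, since Mt2 was at 0.72 on the log2 scale at 1.5 hr. Past 2-fold in the lower direction at any of the times were 2 genes as deposited (Sod1 and Mt1), against 38.4%, 1 without the 6 hr library, against 13.4%, and 1 relative to the median, against 20.9%.

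**Figure D2:**
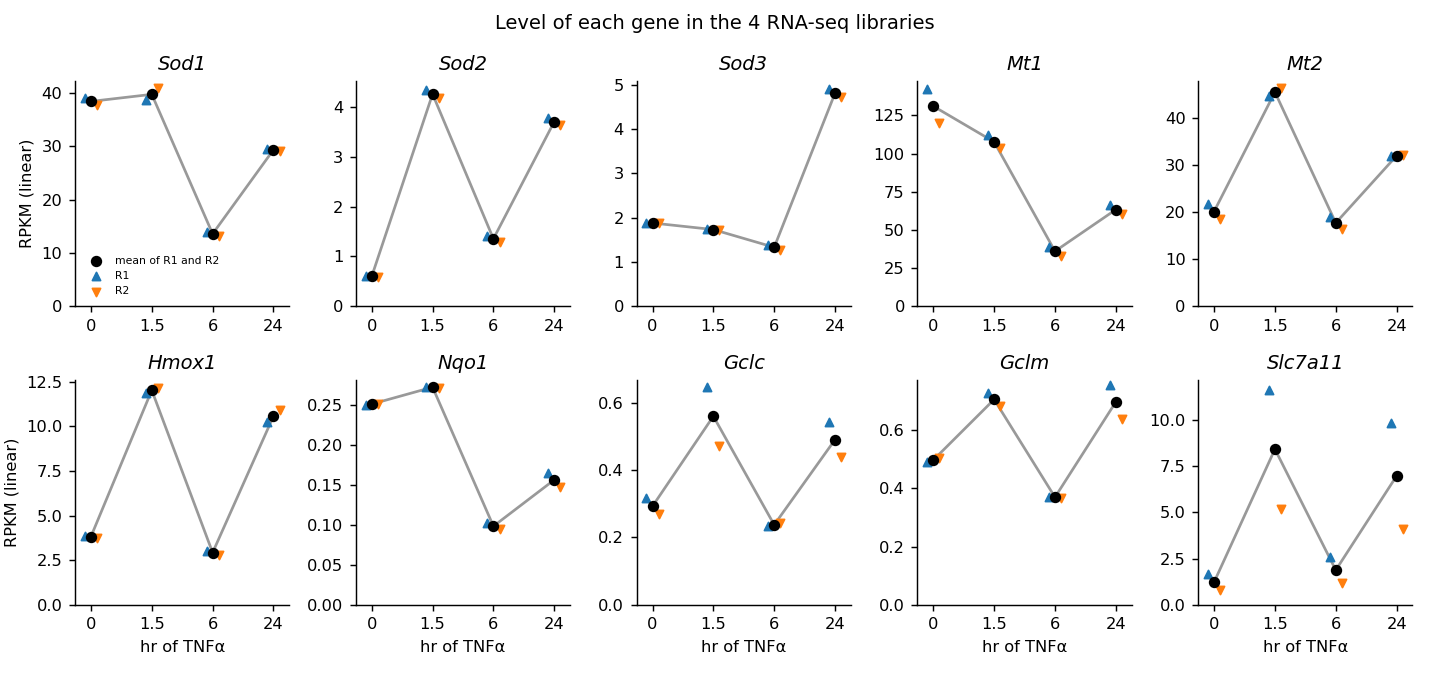
Level of each of the 10 genes in RPKM (linear y axes from 0, a scale for each gene) in the untreated library (0 hr) and after 1.5, 6 and 24 hr of TNFα (x axis). Black points are the mean of columns R1 (blue) and R2 (orange) of 1 library. Sod2, Hmox1 and Slc7a11 are high at 1.5 and 24 hr and low at 0 and 6 hr, Sod3 is highest at 24 hr, and Mt1 is highest untreated.

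Sod2, the manganese superoxide dismutase of mitochondria, was at 0.597 RPKM in untreated MEFs, 4.27 at 1.5 hr, 1.36 at 6 hr and 3.71 at 24 hr. All 3 treated libraries were above the untreated one, also in each column. The log2 ratios to untreated were 2.84 at 1.5 hr (95% counting interval 2.36 to 3.42), 1.18 at 6 hr (0.60 to 1.84) and 2.64 at 24 hr (2.16 to 3.22), which place it above 99.2%, 98.6% and 99.4% of coding genes. The intervals rest on at least 35 reads in the untreated library and cover counting error only. Against genes of like GC content (its transcript holds 43.6%) the log2 ratios were 1.55, 1.38 and 1.77, or 2.93-, 2.60- and 3.42-fold. In that group of 320 genes Sod2 stood above 96.6%, 95.6% and 97.8%, while 65.6% of the group were at least 2-fold higher than untreated at 1.5 hr. Of its transcript, 37.3% matches repeated sequence elsewhere in the genome, and how the counting treated such reads is not given in the sources used here.

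Sod1, the cytosolic copper-zinc enzyme, was the main superoxide dismutase transcript in every library. It was at 38.5 RPKM untreated, 39.8 at 1.5 hr, 13.6 at 6 hr and 29.4 at 24 hr, so only the 6 hr library was far from the others. The log2 ratio of -1.50 at 6 hr became -0.76 relative to the median of coding genes and -0.66 against genes of like GC content. Sod1 has 1 near copy in the genome, with 97.2% identity over 94.7% of the transcript, so its reads may be shared with that copy.

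Sod3, the dismutase secreted outside the cell, was at 1.88 RPKM untreated, 1.73 at 1.5 hr, 1.33 at 6 hr and 4.81 in the 24 hr library. The first 3 libraries were close together and the 24 hr library stood above them. Its log2 ratio to untreated at 24 hr was 1.36 (95% counting interval 1.07 to 1.66), and 1.25 under either of the centred scales. Against the 1.5 hr library, which has nearly the same dependence on GC content as the 24 hr library, Sod3 was 2.78-fold higher, above 99.9% of coding genes. It was the gene of the 10 whose 24 hr level differed most from its 1.5 hr level, and the others lay between 1.74-fold lower and 1.01-fold lower.

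Ratios of 2 genes within a library do not depend on how that library was scaled. Sod1 exceeded Sod2 64.4-fold in untreated MEFs, 9.32-fold at 1.5 hr, 10.0-fold at 6 hr and 7.91-fold at 24 hr. As a share of the summed superoxide dismutase level, Sod2 made up 1.46%, 9.33%, 8.34% and 9.80%, and Sod3 made up 4.59%, 3.78%, 8.17% and 12.7%. The ratio of Sod3 to Sod1 was 0.0488, 0.0435, 0.0978 and 0.164, which is 2.0-fold above untreated at 6 hr and 3.35-fold at 24 hr. The transcripts of Sod3 (52.6% GC) and Sod1 (54.0% GC) are close in base composition, and Sod2 is not.

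**Figure D3:**
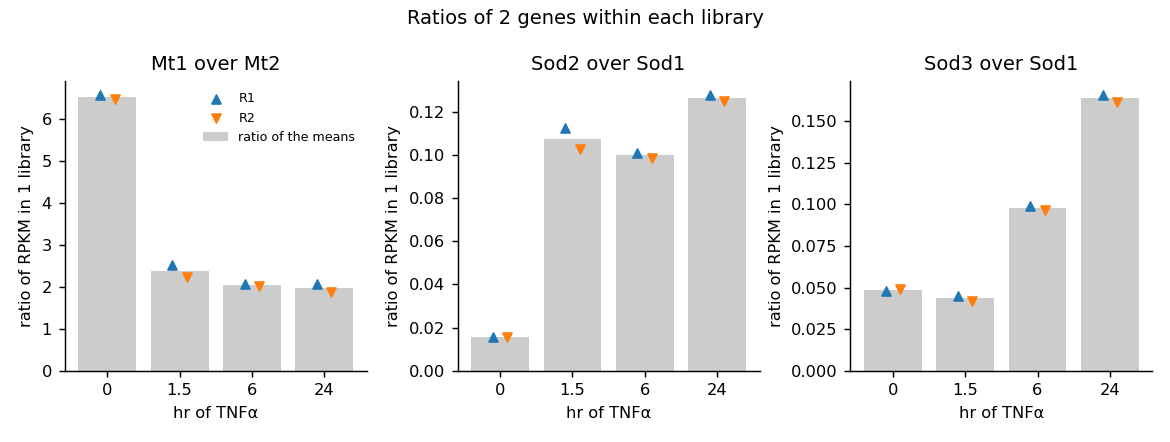
Ratio of the RPKM of 2 genes within each library (y axis, linear from 0) against hr of TNFα (x axis). Bars are ratios of the means and points are columns R1 (blue) and R2 (orange) apart. Mt1 over Mt2 is 6.52 untreated and near 2 in each treated library, while Sod2 over Sod1 is lowest in the untreated library and Sod3 over Sod1 is highest at 24 hr.

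The metallothionein genes Mt1 and Mt2 lie next to each other on chromosome 8, on the same strand, with 5521 bp between the end of Mt2 and the start of Mt1. Mt1 was at 131 RPKM untreated, 108 at 1.5 hr, 36.0 at 6 hr and 63.3 at 24 hr, and was highest without TNFα. Mt2 was at 20.1, 45.5, 17.7 and 32.0 RPKM, and was highest at 1.5 hr. Their log2 ratios to untreated were -0.28 for Mt1 and 1.18 for Mt2 at 1.5 hr, -1.86 and -0.19 at 6 hr, and -1.05 and 0.67 at 24 hr. The counting intervals of the 2 genes did not overlap at any of the times. Against genes of like GC content, Mt1 was at -0.37, -0.93 and -0.82 and Mt2 at 1.26, 0.69 and 1.03.

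The ratio of Mt1 to Mt2 was 6.52 in untreated MEFs and 2.37, 2.03 and 1.98 in the treated libraries, or 2.75-, 3.20- and 3.29-fold lower. In column R1 it was 6.56 untreated against 2.06 to 2.51 in the treated libraries, and in R2 6.46 against 1.89 to 2.23, so the columns gave the same order. Mt2 made up 13.3% of the summed level of the pair untreated and 29.7%, 33.0% and 33.6% after treatment. The sum itself was 151, 153, 53.7 and 95.3 RPKM. The transcripts have similar GC contents (54.5% and 56.8%) and share no stretch of 50 bases, and neither had a near copy elsewhere in the genome. The R1 and R2 columns of Mt1 differed 1.18-fold in the untreated library, more than those of 90.2% of coding genes.

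Hmox1 encodes heme oxygenase, which degrades heme and is a common marker of oxidative stress. It was at 3.82 RPKM untreated, 12.0 at 1.5 hr, 2.92 at 6 hr and 10.6 at 24 hr, high in the 1.5 and 24 hr libraries and low in the other two. The log2 ratios were 1.65 (95% counting interval 1.36 to 1.97), -0.38 (-0.80 to 0.04) and 1.47 (1.17 to 1.78). Against genes of like GC content (its own is 53.4%) they were 1.22, 0.48 and 1.41, past 2-fold at 1.5 and 24 hr. Against genes of like transcript length the log2 ratio was 0.91 at 1.5 hr, which is below 2-fold, and 1.02 at 24 hr. Hmox1 is expressed by macrophages too. The leukocyte markers also had their highest sum at 1.5 hr and the next at 24 hr, a sum carried mostly by Lyz2, while Cd68, Csf1r and Fcer1g were lower at 24 hr than untreated. Their part in the Hmox1 level was not tested.

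Slc7a11 encodes the cystine transporter subunit xCT, which brings in cystine for glutathione synthesis. Its level was 1.22 RPKM untreated, 8.42 at 1.5 hr, 1.88 at 6 hr and 6.98 at 24 hr. Relative to untreated this was 6.89-, 1.54- and 5.70-fold, or 2.78, 0.62 and 2.51 on the log2 scale. Its transcript has the lowest GC content of the 10 (40.7%), and against genes of like GC content the log2 ratios were 1.36, 0.67 and 1.51, or 2.57-, 1.60- and 2.84-fold. In that group of 320 genes, 69.7% were at least 2-fold higher at 1.5 hr and 50.6% at 24 hr, and Slc7a11 stood above 97.8% of them at both times. Of the Slc7a11 transcript, 10.5% matches sequence elsewhere in the genome, at up to 96.5% identity. Columns R1 and R2 of Slc7a11 differed 2.13-fold in the untreated library, 1.66 against 0.781 RPKM, a difference larger than in 99.2% of coding genes. The R1 column was more than 2-fold above R2 in each of the other libraries as well, so the ratios to untreated were nearly equal in the columns, at 2.81 and 2.74 on the log2 scale at 1.5 hr. Slc3a2, the heavy chain that pairs with xCT, was at 9.97, 14.1, 4.87 and 9.50 RPKM, and the ratio of Slc7a11 to Slc3a2 was 0.123 untreated and 0.599, 0.385 and 0.734 after treatment.

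Gclc and Gclm, the catalytic and modifier subunits of glutamate-cysteine ligase, which makes the first intermediate of glutathione, were low throughout. Gclc was at 0.292, 0.560, 0.237 and 0.490 RPKM and Gclm at 0.497, 0.705, 0.369 and 0.696 RPKM. Neither reached a 2-fold difference from untreated at any time on the mean of the columns, and all the counting intervals of Gclm included no difference. The log2 intervals of Gclc lay above no difference at 1.5 hr (0.44 to 1.46) and 24 hr (0.25 to 1.27). At 6 hr its interval included no difference (-0.99 to 0.33). In column R1 alone Gclc was at 1.04 at 1.5 hr. Against genes of like GC content Gclc was at 0.05, 0.30 and 0.29 and Gclm at -0.92, -0.37 and -0.52. The ratio of Gclc to Gclm lay between 0.589 and 0.794 in the 4 libraries. Nqo1, a quinone reductase and a standard NRF2 target, was the lowest of the 10 at 0.251, 0.272, 0.0981 and 0.156 RPKM. These levels rest on at least 6 to 21 reads in a library, and the log2 ratios of Nqo1 to untreated had wide counting intervals. The ratio was 0.12 at 1.5 hr (-0.82 to 1.16) and -0.68 at 24 hr (-1.86 to 0.41), intervals that include no difference. At 6 hr it was -1.35 (-3.02 to -0.0024), or 2.55-fold lower, and -0.61 relative to the median of coding genes. These intervals are for the ratios as deposited. Against genes of like GC content the log2 ratios of Nqo1 were -0.90, -0.85 and -1.31 at 1.5, 6 and 24 hr. The value at 24 hr is 2.48-fold lower and stood above 2.80% of that group. Hmox1 exceeded Nqo1 15.2-fold untreated and 44.2-, 29.8- and 67.7-fold after treatment.

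**Figure D4:**
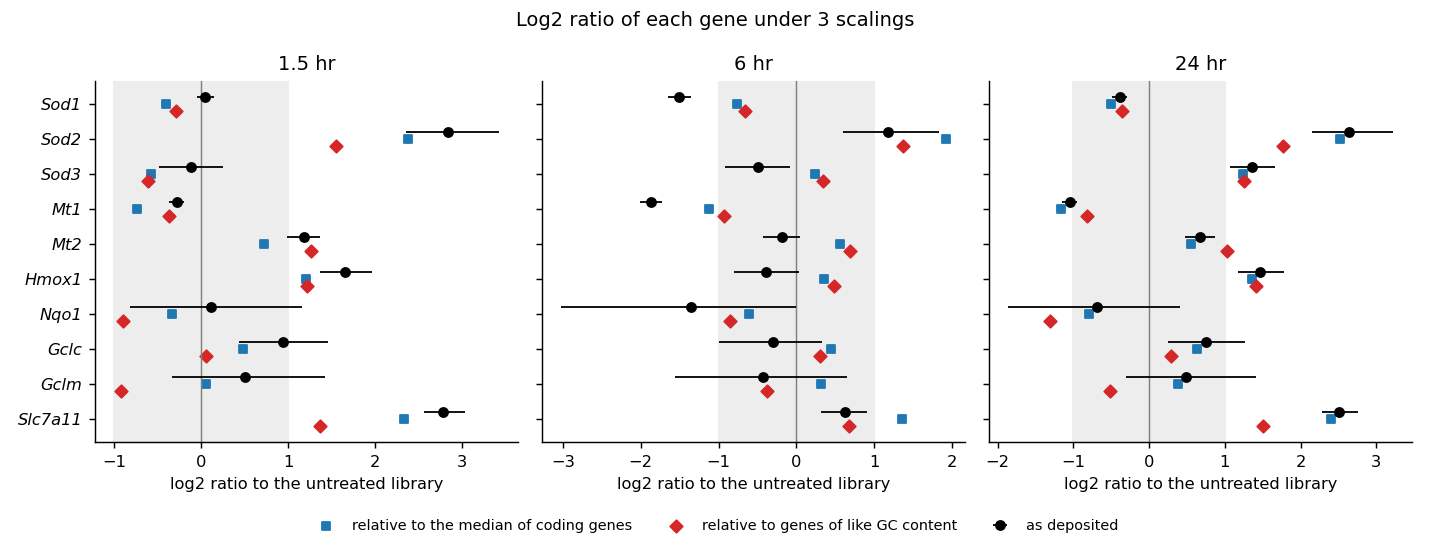
Log2 ratio to the untreated library (x axes) of each of the 10 genes (y axis) at 1.5, 6 and 24 hr. Black circles are as deposited with 95% counting intervals, blue squares are relative to the median of coding genes, red diamonds are relative to genes of like GC content, and the grey band spans less than 2-fold. Sod2 lies past 2-fold under all 3 scales at each time, while Slc7a11 and Hmox1 do at 1.5 and 24 hr and Sod3 at 24 hr.

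The genes around these 10 were taken from 6 lists with 95 genes, of which 56 had an average RPKM above 1. As deposited, 23 of the 56 were at least 2-fold higher and 1 lower at 1.5 hr (background 29.9% and 7.80%), 1 higher and 22 lower at 6 hr (1.74% and 31.6%), and 16 higher and 4 lower at 24 hr (16.8% and 12.6%), and the medians of their log2 ratios were 0.77, -0.75 and 0.35. Relative to the median of coding genes the counts were 16 and 6 (15.6% and 17.4%), 5 and 3 (7.15% and 3.13%), and 11 and 5 (14.1% and 15.1%). Among 8 NRF2 regulators that passed, 5 were at least 2-fold higher at 1.5 hr and 3 at 24 hr, with 0 higher at 6 hr and 0 lower at any time. On the scale of the median 4, 1 and 2 were higher and 0 lower. Those higher at 1.5 hr included Nfe2l2 (NRF2 itself) at 1.00, 4.85, 1.21 and 2.59 RPKM, the selective autophagy receptor gene Sqstm1 at 19.6, 91.2, 18.8 and 41.7 RPKM, Cul3, the scaffold of the ligase that marks NRF2 for degradation, at 0.726, 2.54, 0.682 and 2.33 RPKM, and the small Maf factor gene Maff at 0.850, 2.73, 0.815 and 1.34 RPKM. The gene of NRF2 itself and Cul3, a negative regulator of NRF2, were thus both among the higher genes. Bach1 was also past 2-fold at 1.5 hr as deposited, at log2 ratios of 1.03, -0.58 and 0.40. Of the other regulators that passed, Nfe2l1 was at 0.87, -0.19 and 0.39. Keap1 was at 0.40, -0.76 and 0.18 and Mafg at -0.33, -0.36 and -0.68. Single values of these genes are not given against genes of like GC content.

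Of 17 other NRF2 targets that passed, 8 were higher and 0 lower at 1.5 hr (background 29.9% and 7.80%). At 6 hr 0 were higher and 7 lower (1.74% and 31.6%), and at 24 hr 7 and 1 (16.8% and 12.6%). With the median taken off these counts were 5 and 1 at 1.5 hr (15.6% and 17.4%) and 1 and 3 at 6 hr (7.15% and 3.13%). At 24 hr they were 5 and 1 (14.1% and 15.1%). Me1, malic enzyme, was at log2 ratios of 2.17, 0.53 and 2.05, Txnrd1, thioredoxin reductase, at 2.10, 0.00 and 1.01, and Prdx1, a peroxiredoxin, at 1.88, -0.35 and 1.14. Gstm1, a glutathione transferase, went the other way, at 4.72 RPKM untreated and 2.37, 1.04 and 1.65 RPKM after treatment.

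Among 15 genes of peroxide and superoxide removal, 8 were higher and 1 lower at 1.5 hr (background 29.9% and 7.80%). At 6 hr 1 was higher and 6 lower (1.74% and 31.6%), and at 24 hr 4 and 1 (16.8% and 12.6%). The counts relative to the median were 5 and 1 at 1.5 hr (15.6% and 17.4%) and 3 and 0 at 6 hr (7.15% and 3.13%). At 24 hr they were 4 and 1 (14.1% and 15.1%). Glutaredoxin (Glrx) was at 0.620, 4.14, 1.82 and 6.80 RPKM, above untreated in each treated library, and the mitochondrial peroxiredoxin Prdx3 at 0.967, 6.04, 1.62 and 3.68 RPKM. Gpx8, a peroxidase of the endoplasmic reticulum, was at 5.03, 22.0, 6.98 and 18.4 RPKM. Gpx3, the secreted glutathione peroxidase, was lower in each treated library, at 33.7 RPKM untreated and 8.93, 11.4 and 3.91 RPKM after treatment, or log2 ratios of -1.91, -1.56 and -3.11.

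In the list of glutathione and cystine supply, 0 of 6 genes that passed were at least 2-fold higher or lower at 1.5 hr or at 24 hr as deposited, and 4 were lower at 6 hr. Relative to the median 0 were higher at any time and 1 was lower, Ggt7 at 1.5 hr, at -1.40 on the log2 scale. Of all coding genes that passed, 29.9% were higher and 7.80% lower at 1.5 hr as deposited, and 1.74% and 31.6% at 6 hr. At 24 hr the shares were 16.8% and 12.6%. Relative to the median they were 15.6% and 17.4% at 1.5 hr, 7.15% and 3.13% at 6 hr, and 14.1% and 15.1% at 24 hr. Slc3a2 was at log2 ratios of 0.50, -1.03 and -0.07, Chac1, which degrades glutathione, at 0.81, -1.24 and 0.56, the amino acid transporter gene Slc1a4 at 0.41, -1.50 and 0.02, and Ggt7, of the gamma-glutamyltransferase family, at -0.94, -1.10 and -0.83. Among 5 metal handling genes that passed, 1 was higher and 0 lower at 1.5 hr, 0 higher and 2 lower at 6 hr, and 1 higher and 1 lower at 24 hr. These became 1 and 2, 0 and 0, and 0 and 1 relative to the median, where the lower genes at 1.5 hr were Atox1 (-1.24) and Slc39a7 (-1.01). The zinc importer gene Slc39a6 was at 0.983, 2.96, 0.819 and 2.07 RPKM, while Atox1, a copper chaperone, was at 50.5, 29.3, 23.1 and 25.1 RPKM, highest untreated like Mt1. The zinc transporter gene Slc39a7 was at log2 ratios of -0.55, -0.67 and -0.85 and the iron transporter gene Slc11a2 at 0.87, -0.04 and 0.30.

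Of 13 genes that produce oxidants or serve the NADPH oxidase, 5 passed. As deposited 1 was higher and 0 lower at 1.5 hr (background 29.9% and 7.80%). At 6 hr 0 were higher and 3 lower (1.74% and 31.6%), and at 24 hr 1 and 1 (16.8% and 12.6%). Relative to the median the counts were 1 and 1 at 1.5 hr (15.6% and 17.4%) and 0 and 0 at 6 hr (7.15% and 3.13%). At 24 hr they were 0 and 2 (14.1% and 15.1%). Rac1, a small GTPase, was at 5.13, 14.7, 4.33 and 11.1 RPKM. Rac2, its form in blood cells, was at 2.77, 1.82, 0.957 and 1.24 RPKM, the oxidase subunit gene Ncf1 at 2.17, 2.51, 1.09 and 1.09 RPKM and Cyba, a membrane subunit, at 42.5, 39.5, 15.1 and 42.1 RPKM. Rac2 and Ncf1 are expressed mainly in leukocytes. Rac2 was highest untreated. The macrophage markers did not share 1 pattern: Csf1r (3.44, 3.35, 1.05 and 1.45 RPKM) and Fcer1g (18.4, 11.1, 4.70 and 6.34 RPKM) were highest untreated, whereas Cd68 (7.07, 9.61, 2.36 and 3.64 RPKM), Cd14 (0.732, 6.02, 2.08 and 4.52 RPKM) and Lyz2 were highest at 1.5 hr. Their part in the levels of Rac2 and Ncf1 was not tested.

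Likeness of pattern was measured as the root mean square difference of 6 log2 ratios to untreated (3 times, 2 columns) among 6542 coding genes. The 3 nearest to Sod2 were Cycs, Srgn and Hprt, at differences of 0.12, 0.14 and 0.19. Hprt, often used as a reference gene, was at 0.502, 3.39, 1.05 and 2.55 RPKM, nearly the levels of Sod2. The nearest to Slc7a11 were Psph, Atp6v0e and Rraga (0.16 to 0.19), and genes near to Hmox1 were Eif2b1 (0.07) and Dusp3 (0.09). Mt1 was nearest to Mfap5, Mfap4 and Plod1 (0.10 to 0.12), and Mt2 to Pak2, Usp8 and Cct4 (0.07 to 0.09). That Mt1 and Mt2 shared none of these follows from their different ratios, which are what this measure uses. Sod1 was nearest to Sap30l, Nedd8 and Clpp (0.05 to 0.06). Sod3 had no gene as close, with Tmem176a, Gm13139 and Irf7 at 0.29, 0.34 and 0.37.

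H3K4me3 in untreated MEFs was found within 1 kb of the start of 7 of the 10 genes, against 89.4% of 6417 coding genes with an average RPKM above 1. Nqo1, Gclc and Gclm are not among those coding genes. Of the members that are, only Sod3 and Slc7a11 had no peak. The peak at Mt1 (chr8:96702020-96705055) held 1107 tags at a fold enrichment over the input of 138, above 99.0% of the peaks at those genes, and the peak at Mt2 (chr8:96694891-96698230) held 640 tags at 24.9-fold, above 4.41%. In tags the same peaks stood above 35.3% and 7.31%. The peaks did not touch, and the gene with the higher enrichment was also the one with the higher untreated RNA level. Hmox1 had 1545 tags at 101-fold, Sod2 1158 tags at 72.6-fold and Sod1 1405 tags at 53.9-fold. The peak of Sod2 stood above 78.1% of the others in fold enrichment, 39.1% in tags and 17.6% in length, while its untreated RNA level was above 2.37% of coding genes. Gclc had 911 tags at 60.0-fold and Gclm 1080 tags at 24.6-fold, although both were below 1 RPKM. No peak lay within 1 kb of Sod3, Nqo1 or Slc7a11, whose nearest peaks were 106497, 19519 and 685125 bp away, so Slc7a11 and Sod3 were at 1.22 and 1.88 RPKM with no peak in the list at their annotated starts. H3K4me3 after TNFα was not analysed here.

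**Figure D5:**
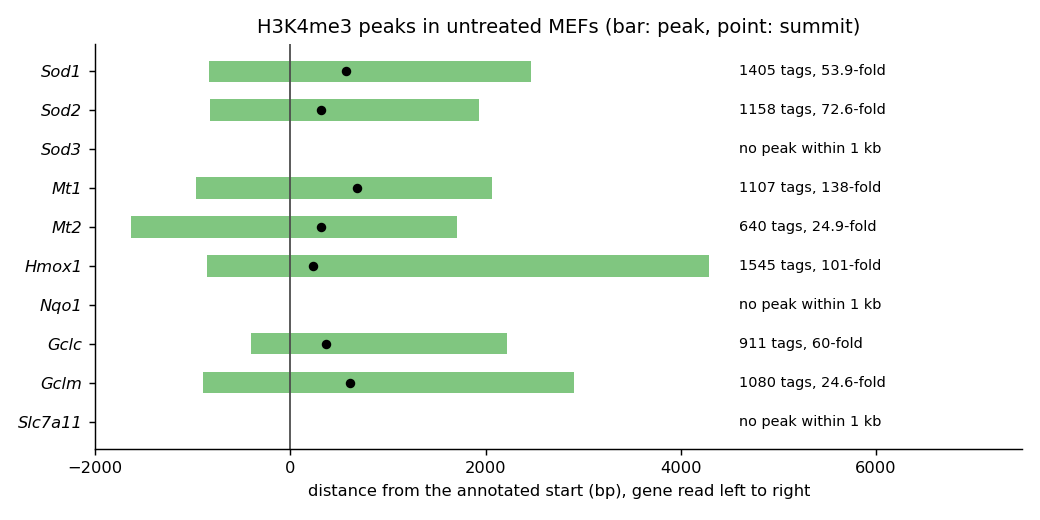
H3K4me3 peaks of untreated MEFs at the 10 genes (y axis) by distance from the annotated start in bp (x axis, each gene read left to right). Green bars are peaks, black points their summits, and the text gives tags and fold enrichment over the input. Summits lie after the start at each of the 7 genes with a peak, and Sod3, Nqo1 and Slc7a11 have none.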

How the data were processed

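The members and gene lists were chosen with earlier results of these data known. RNA reads were aligned by the authors (TopHat, mm9), who deposited RPKM values per RefSeq transcript, 2 columns (R1, R2) per library. Columns were tied to times by the library names in the study's supplement. All values were divided by 1 factor, 85.6, the median ratio of the deposited RPKM to the study's RPKM over 5167 values, and R1 and R2 were averaged. For a gene, the transcript with the highest mean was used, 27794 entries giving 21837 genes. No pseudocount was used.

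ChIP reads were aligned by the authors with Bowtie, and MACS called peaks against the input. The deposited list gives counts of tags, a score from the p, a fold enrichment as a ratio, an FDR in percent and a signal of tags per length. The score and signal were not used.

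Of 859 low RPKM values, 69.3% were whole reads within 0.05 bases, which gave the worth of a read. Reads of higher values are estimates, so lower bounds from the shortest annotated coding length gave exact 95% counting intervals. Genes were counted at an average RPKM above 1 and a 2-fold difference. GC content was found for 98.1% of coding genes and divided into 20 bins. Named pathway genes were the 4 per list with the largest log2 ratio relative to the median of coding genes, and the 3 genes nearest in pattern to each member that passed, of which 1 is not reported here. The steps were tested on simulated data: at each time, 200 of 200 genes given a known fold were recovered among 6542 genes. The given folds lay well past the threshold, with little noise, no dependence on GC content and no counting error. Full recovery was therefore near certain, and the test covers the arithmetic only. Python 3.11.15, numpy 2.4.6, pandas 2.3.3 and scipy 1.17.1 were used. Alternatives were other scalings, pseudocounts, thresholds, filters, bins of GC content or length, and single columns; leaving out the 6 hr library, asking for both columns, and counts at 1 or more times under another scaling were chosen after seeing the data.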

Additional observations from a re-analysis of the deposited data

How the results depend on the processing

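No paired analysis was possible because each time has 1 library. For the 30 log2 ratios of the 10 genes to untreated, 229 of 330 recomputed values stayed within the 95% counting interval of the deposited ratio, 101 moved outside it and 0 of the ratios past 2-fold changed sign. GC bins moved 18 of 30 and a pseudocount of 1 RPKM 8 of 30. The cause of the changes below was not tested.

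Of the 7 genes that passed, the 4 at least 2-fold higher at 1.5 hr became 2 within bins of transcript length and above an average RPKM of 5. The 1 at 6 hr became 2 under scaling to the sum, both medians of ratios, the trimmed mean, length bins and a 1.5-fold threshold, and 0 with a pseudocount of 1 RPKM, at 3-fold and above an average of 5. The 4 at 24 hr became 2 at 3-fold and 1 above an average of 5. Of those lower, the 2 at 6 hr became 1 under scaling to the sum, both medians of ratios, the trimmed mean and 3-fold, and 0 within GC or length bins, and the 1 at 24 hr became 0 under scaling to the sum, with R2 alone, within GC bins and at 3-fold. Lower at 1 or more times were 2 genes as deposited, against 38.4% of coding genes, 1 without the 6 hr library, against 13.4%, and 1 under the median of ratios over coding genes, against 20.9%.

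Of the 56 pathway genes, the 23 higher at 1.5 hr became 11 within GC bins, 14 at 3-fold, 38 with no filter and 10 above an average of 5. The 1 lower at 1.5 hr became 4 scaled to the sum or over all transcripts, 6 over coding genes, 5 with the trimmed mean, length bins, 1.5-fold or no filter, and 3 with R1 alone or GC bins. The 1 higher at 6 hr became 6 scaled to the sum, 5 under both medians of ratios, the trimmed mean and length bins, 3 with no filter, 2 with summed rows, GC bins or 1.5-fold, and 0 with a pseudocount of 1, at 3-fold or above 5. The 22 lower at 6 hr became 2 scaled to the sum or within GC or length bins, 3 under both medians of ratios, the trimmed mean and 3-fold, 13 with a pseudocount of 1 or above 5, and 36 with no filter. The 16 higher at 24 hr became 9 with a pseudocount of 1, 5 at 3-fold, 28 with no filter and 8 above 5, and the 4 lower became 2 with a pseudocount of 1 or above 5, 7 within length bins, 9 at 1.5-fold, 1 at 3-fold and 12 with no filter. The H3K4me3 count of 7 was the same over the start itself, within 5 kb and at an FDR of at most 1%.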
